A study of Homo sapiens with 6 samples.

Results

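The leukocyte integrin subunits described here are 10 genes, the alpha chains ITGAM, ITGAX, ITGAL, ITGA4, ITGA5, ITGA6 and ITGAE and the beta chains ITGB1, ITGB2 and ITGB7. They were taken by gene symbol from the 35052 genes to which the transcripts of 6 RNA-seq libraries of EoL-1 cells were assigned, and all 10 were found. EoL-1 is a human leukaemia line of eosinophil character, often studied in place of blood eosinophils. Polyadenylated RNA was sequenced from 3 libraries of wild-type EoL-1 cells, with no edit or agent named for them, and from 3 libraries of EoL-1 cells in which ATF3, a stress-induced transcription factor, had been targeted with CRISPR/Cas9, called ATF3 knockout in the sample labels and a knockdown in the design text. Both groups were grown in the same serum-supplemented medium. Whether replicates were separate cultures or clones is not in the labels, and p-values therefore cover only the spread among these libraries, which may be technical. The deposited knockout tables carry tags that the labels do not explain, so clones or guides may differ among them.

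Integrins are adhesion receptors made of an alpha and a beta chain, and neither chain reaches the cell surface efficiently without a partner. The β2 chain (ITGB2, CD18) pairs with ITGAL to form LFA-1, with ITGAM (CD11b) to form Mac-1 and with ITGAX (CD11c), and these receptors bind ICAMs, fibrinogen and complement fragments. The β1 chain (ITGB1) pairs with ITGA4 to form VLA-4, a receptor of VCAM1 and fibronectin, with ITGA5 to form the main fibronectin receptor, and with ITGA6 to form a laminin receptor. The β7 chain (ITGB7) pairs with ITGA4, as a receptor of the gut addressin MADCAM1, and with ITGAE (CD103), which binds E-cadherin. Blood eosinophils use VLA-4 and β2 integrins to adhere to endothelium and enter tissue.

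The libraries held 26766103 to 30117281 estimated reads. ATF3 was lower in every knockout library (146, 229 and 132 reads in replicates 1, 2 and 3; log2 fold change -1.75, SE 0.25, edgeR adjusted p = 0.0098) than in every wild-type library (634, 462 and 632 reads), though its mRNA was still present. Of the markers that define eosinophils, CLC, PRG3 and IL5RA had 0 reads in every library, and EPX stayed at or below 0.0769 CPM (counts scaled to library size), while RNASE2 stood at 36.3 ± 6.10 CPM in wild type (SD, n = 3). Of the T and NK cell markers CD3D, CD3E and CD8A had 0 reads in every library while NKG7 stood at 117 CPM in wild type and at 147 CPM in knockout, and of the B cell markers MS4A1 had 0 reads while CD79A stood at 6.19 and 6.45 CPM. None of the 7 tested markers of these 2 lists was called, where 21.1% of all tested genes were. Wild-type replicate 2 lay nearer to the knockout libraries than the other wild-type libraries on the first principal component of all genes, with a score of -13.5, against -34.9 and -37.9 for wild-type replicates 3 and 1 and 21.0 to 35.5 for the knockout libraries. Knockout replicate 3 stood apart from the other knockout libraries on the second component, at -41.7 against 13.1 and 14.6.

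ITGAM, ITGA5 and ITGB7 rose in the knockout libraries, and no tested subunit was called lower. Of the 10 genes, 9 passed the filter on low counts, and ITGA6, with 37 reads over all libraries, did not. An edgeR quasi-likelihood test with Benjamini-Hochberg adjustment over 13131 genes called 3 of the 9 higher at an adjusted p of 0.05, where 11.4% of all tested genes were called higher and 9.72% lower. No tested member fell at an unadjusted p under 0.05 either, and DESeq2 and limma-voom also called 0 of the tested members lower. The median log2 fold change of the 9 tested members was 0.27, against 0.01 over all tested genes. In 4 of the 9 every knockout library lay above every wild-type library in CPM (ITGAM, ITGA5, ITGAE and ITGB7), and 43.5% of all tested genes had groups that did not overlap, with knockout higher in 22.2% of all tested genes. Without wild-type replicate 1 no gene in the genome-wide fit passed (smallest adjusted p = 0.0503), so all 3 members lost their calls. The 3 had an unadjusted p under 0.05 at that setting, as did 3496 of all genes.

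**Figure D1:**
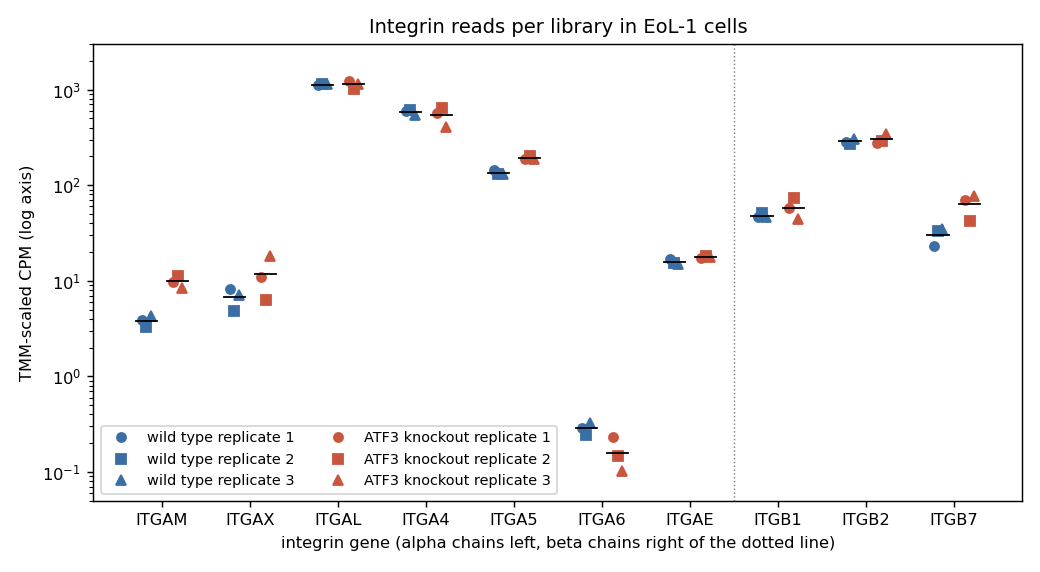
Each point is a library's TMM-scaled CPM of an integrin gene on a log axis, with wild type in blue, ATF3 knockout in red, a symbol for each replicate number and a black line at the group mean. The knockout points of ITGAM, ITGA5, ITGAE and ITGB7 lie above all wild-type points, and those of ITGAL and ITGB2 overlap with them.

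The levels of the subunits spanned a wide range. On the scale of TPM summed over transcripts, which divides by length and so allows genes to be compared, ITGAL was the highest in wild type, with a level of 351 ± 9.12 TPM (SD, n = 3), followed by ITGA4 at 144 ± 14.8 TPM and ITGB2 at 126 ± 5.90 TPM. The libraries of ITGA4 and ITGB2 overlapped, so their order is not resolved. ITGA5 (38.1 ± 3.84 TPM) and ITGAE (27.2 ± 1.68 TPM) came next, and then ITGB1 (18.0 ± 0.544 TPM) and ITGB7 (17.6 ± 3.77 TPM), which overlapped. ITGAX (2.43 ± 0.912 TPM) and ITGAM (1.18 ± 0.330 TPM) were far lower, and ITGA6 was close to absent (0.0454 ± 0.00624 TPM). In knockout the order was the same except that ITGB7, at 36.4 ± 11.1 TPM, stood level with ITGAE (32.7 ± 2.09 TPM) and above ITGB1 (19.2 ± 5.69 TPM) in mean. ITGB7 exceeded ITGB1 2.00- and 3.37-fold in knockout replicates 1 and 3, but in replicate 2 their ratio was 0.987. The libraries of ITGB7 and ITGAE overlapped there, and so did those of ITGAX and ITGAM.

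These levels depend on which transcripts are summed, because a few reads on a short transcript carry a large TPM. Over protein-coding transcripts alone the wild-type mean of ITGAL was 183 TPM, that of ITGA4 89.6 TPM, that of ITGA5 27.0 TPM and that of ITGAX 1.01 TPM, while ITGB2 kept 115 TPM and ITGB1 18.0 TPM. ITGAE changed most: its wild-type mean was 0.0349 TPM over protein-coding transcripts.

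**Figure D2:**
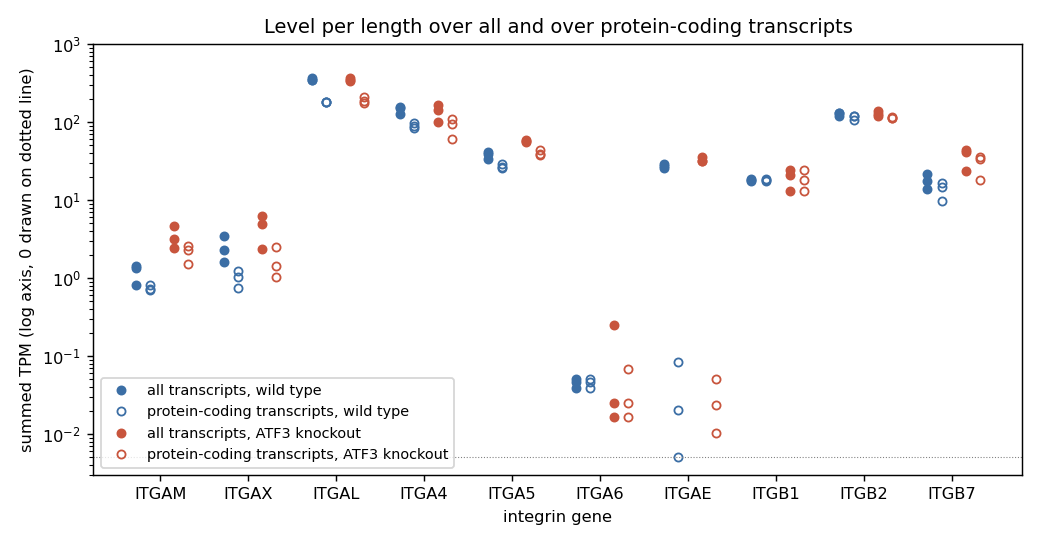
Each point is a library's summed TPM of an integrin gene on a log axis, with filled circles for all transcripts, open circles for protein-coding transcripts, blue for wild type and red for ATF3 knockout; a value of 0 is drawn on the dotted line. ITGAE falls from 27.2 TPM over all transcripts in wild type to 0.0349 TPM over protein-coding transcripts, and ITGB1 stays at 18.0 TPM.

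ITGAM, the alpha chain of Mac-1 and a receptor chain of mature myeloid cells, had the largest fold change of the 9 tested members. The gene (ENSG00000169896.17) lies on the plus strand of chromosome 16, from 31259967 to 31332892 of GRCh38. It stood at 3.86, 3.27 and 4.30 CPM in wild-type replicates 1, 2 and 3, and at 9.81, 11.3 and 8.40 CPM in knockout replicates 1, 2 and 3. The lowest knockout library was thus well above the highest wild-type library. ITGAM rose 2.58-fold, with a log2 fold change of 1.37 (SE 0.18, edgeR adjusted p = 0.00871), and an exact two-sided permutation test of 3 against 3 gave p = 0.1, the smallest that this design allows. Its adjusted p was 0.051 without wild-type replicate 1 and at most 0.0469 without any other single library. The rise rests on few reads, 93 to 118 in wild type and 245 to 311 in knockout.

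ITGAX, the neighbouring gene (chromosome 16, 31355134 to 31382997, plus strand), which encodes the CD11c chain of myeloid and dendritic cells, varied within both groups. It had 8.15, 4.81 and 7.14 CPM in wild type and 11, 6.29 and 18.2 CPM in knockout. Knockout replicate 2 lay within the wild-type range, and knockout replicate 3 was the highest library. The log2 fold change was 0.82 (SE 0.39), and it did not pass (edgeR adjusted p = 0.173). It was 0.36 without knockout replicate 3 and 1.12 without knockout replicate 2, with adjusted p-values of 0.447 and 0.0611.

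ITGAL, the alpha chain of LFA-1 (chromosome 16, 30472658 to 30523185, plus strand), was the most abundant member. It had 1115, 1133 and 1134 CPM in wild type and 1232, 1014 and 1153 CPM in knockout. Knockout replicates 1 and 2 lay on either side of all wild-type libraries. The log2 fold change was 0.01 (SE 0.08, edgeR adjusted p = 0.961).

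ITGB2, the shared β2 chain (chromosome 21, 44885953 to 44931989, minus strand), had 284, 271 and 306 CPM in wild type and 274, 293 and 341 CPM in knockout. The groups overlapped, with knockout replicate 3 the highest. The log2 fold change was 0.08 (SE 0.09, edgeR adjusted p = 0.585). The sign of ITGAL turned with upper-quartile factors, and those of both ITGAL and ITGB2 turned with the length offset and with the GC trend removed, each time at a value near 0.

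Some markers of other myeloid cells rose as well. Of 11 monocyte and macrophage markers 5 were tested, and 2 rose (CSF1R and LYZ), with a summed level of 141 to 593 CPM in wild type and 610.4 to 1288 CPM in knockout. Most of that sum was LYZ and VCAN, and wild-type replicate 2 was the highest wild-type library for both (259 and 245 CPM). VCAN and CD163 did not pass (adjusted p = 0.297 and 0.269), and FCGR1A had a log2 fold change of -0.15 (adjusted p = 0.831). MARCO of that list had 0 reads in every library, and CD14 stayed at or below 0.364 CPM. Of 9 measured neutrophil markers 4 were tested and MPO rose, with a summed level of 76.5 to 102 CPM in wild type and 168 to 208 CPM in knockout, while FCGR3B, ELANE, AZU1, PRTN3 and LTF had 0 reads, and CXCR2, CSF3R and S100A12 did not pass (adjusted p = 0.373, 0.224 and 0.0574). Of 10 eosinophil markers 3 were tested and all 3 rose (RNASE2, RNASE3 and ADGRE1), from a summed 37.2 to 52.5 CPM to 118 to 184 CPM. These marker counts stand beside 11.4% of all tested genes called higher. In bulk RNA a change in the number of cells that express a gene and a change in RNA per cell cannot be told apart. The part of these myeloid markers in the rise of ITGAM was not tested.

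ITGA5, the alpha chain of the fibronectin receptor (ENSG00000161638.10, chromosome 12, 54395261 to 54419460, minus strand), rose with little spread. It had 144, 131 and 131 CPM in wild type and 186, 201 and 189 CPM in knockout. All knockout libraries were above all wild-type libraries. ITGA5 rose 1.42-fold, with a log2 fold change of 0.51 (SE 0.07, edgeR adjusted p = 0.00881). The log2 fold change was 0.47 to 0.55 with each library left out in turn, and the adjusted p was 0.0503 without wild-type replicate 1 and at most 0.0483 without any other.

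ITGA4, the α4 chain shared by VLA-4 and α4β7 (chromosome 2, 181457202 to 181536187, plus strand), was not resolved between the groups. It had 593, 612 and 547 CPM in wild type and 564, 647 and 410.2 CPM in knockout. Knockout replicate 3 was the lowest library and knockout replicate 2 the highest. The log2 fold change was -0.11 (SE 0.16, edgeR adjusted p = 0.646), and it was 0.04 without knockout replicate 3.

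ITGB1 (chromosome 10, 32900319 to 33005792, minus strand) had 46.5, 51.3 and 46.7 CPM in wild type and 57.4, 72.6 and 44.5 CPM in knockout. Knockout replicates 1 and 2 were above the wild-type libraries, and knockout replicate 3 was below them. The log2 fold change was 0.27 (SE 0.17, edgeR adjusted p = 0.282). Without knockout replicate 3 it was 0.42 with an adjusted p of 0.0485. ITGB1P1, a processed pseudogene of ITGB1 that could take some of its reads, held 0 to 1.55 CPM, and adding it left the groups overlapping (means of 48.7 ± 2.35 CPM and 58.7 ± 14.5 CPM for wild type and knockout).

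ITGB7 (ENSG00000139626.15, chromosome 12, 53191318 to 53207307, minus strand), the beta chain of gut-homing leukocytes, rose to about the level of a doubling. It had 23.1, 33.5 and 34.5 CPM in wild type and 70.5, 42.2 and 76.6 CPM in knockout. The groups did not overlap, but wild-type replicate 1 and knockout replicate 2 were each low in their group. ITGB7 rose 2.08-fold, with a log2 fold change of 1.06 (SE 0.25, edgeR adjusted p = 0.0291). This call was the least stable of the 3: it held without knockout replicate 2 (adjusted p = 0.026) and was lost without wild-type replicates 1 (0.104), 2 (0.0542) or 3 (0.0778), without knockout replicates 1 (0.0835) or 3 (0.0586), and with an offset for gene length, averaged over its transcripts (0.0641). ITGB7 shares 1886 of its 4481 exon bases with ZNF740 on the opposite strand, which held 11960 reads against 7770 of ITGB7. ZNF740 had 72.7, 67.2 and 70.5 CPM in wild type and 75.3, 68.4 and 77.3 CPM in knockout, with a log2 fold change of 0.07 (edgeR adjusted p = 0.515).

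ITGAE, the CD103 chain of intraepithelial lymphocytes (chromosome 17, 3714628 to 3801243, minus strand), had 16.9, 15.4 and 14.9 CPM in wild type and 17.2, 18.2 and 17.5 CPM in knockout. The groups did not overlap, yet the difference was small, with a log2 fold change of 0.17 (SE 0.09) that did not pass (edgeR adjusted p = 0.209). ITGA6, the laminin receptor chain (chromosome 2, 172427354 to 172506282, plus strand), collected 8, 7 and 9 wild-type reads and 6, 4 and 3 knockout reads. The counts do not overlap, but they are close to the limit of detection and were not tested.

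**Figure D3:**
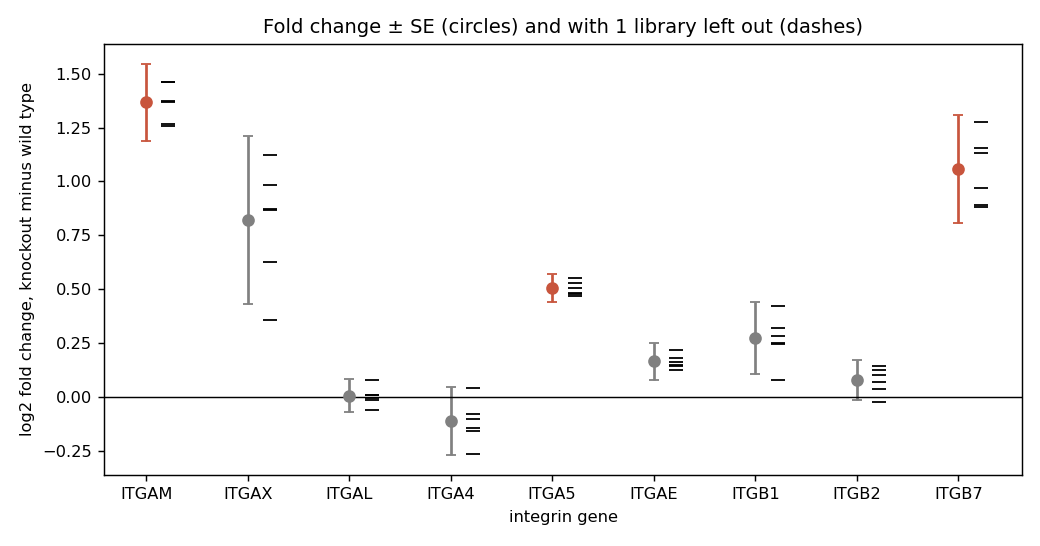
Circles give the edgeR log2 fold change of knockout minus wild type with its SE for the 9 tested integrin genes, in red where the adjusted p was under 0.05, and dashes give the same value with each of the 6 libraries left out in turn. ITGAM (1.37), ITGB7 (1.06) and ITGA5 (0.51) stay above 0 in every fit, while ITGAL, ITGA4 and ITGB2 cross 0.

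The upstream sequences of the 3 members that rose are shown because these genes were the ones called, and they belong to different receptors. RefSeq promoter windows of GRCh38.p14, from 250 bases before to 50 bases after a gene start, were given for 7 of the 10 members (ITGAM, ITGA4, ITGA5, ITGA6, ITGAE, ITGB1 and ITGB7), and ITGAX, ITGAL and ITGB2 are named only. Capitals mark matches, on either strand, to the full ATF/CREB site TGACGTCA, the AP-1 site TGANTCA, the PU.1/ETS core GAGGAA and the Sp1 core GGGCGG; none of the matches shown overlap.
ITGAM, chr16:31259725-31260024, plus strand: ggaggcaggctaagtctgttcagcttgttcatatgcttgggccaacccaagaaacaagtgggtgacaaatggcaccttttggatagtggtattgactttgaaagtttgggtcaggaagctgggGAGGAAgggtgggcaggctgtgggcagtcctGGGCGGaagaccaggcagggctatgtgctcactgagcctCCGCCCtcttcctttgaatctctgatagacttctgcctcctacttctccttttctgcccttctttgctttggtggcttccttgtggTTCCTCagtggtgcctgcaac
ITGA5, chr12:54419217-54419516, minus strand: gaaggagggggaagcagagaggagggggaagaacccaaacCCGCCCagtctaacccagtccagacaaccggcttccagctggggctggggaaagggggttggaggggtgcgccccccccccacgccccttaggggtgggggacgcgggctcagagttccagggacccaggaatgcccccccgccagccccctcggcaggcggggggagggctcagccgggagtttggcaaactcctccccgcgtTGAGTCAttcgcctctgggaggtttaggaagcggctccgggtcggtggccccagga
ITGB7, chr12:53207202-53207501, minus strand: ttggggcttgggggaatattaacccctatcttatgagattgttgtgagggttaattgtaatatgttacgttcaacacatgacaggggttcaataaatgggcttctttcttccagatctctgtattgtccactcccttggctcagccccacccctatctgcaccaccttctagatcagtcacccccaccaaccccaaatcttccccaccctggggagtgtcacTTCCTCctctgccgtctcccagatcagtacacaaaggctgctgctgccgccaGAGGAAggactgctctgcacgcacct
The ITGAM window held GAGGAA at -127 and 29 from the start and GGGCGG at -96 and -57. The ITGA5 window held TGAGTCA, a match to the AP-1 site, at -6 and GGGCGG at -210. The ITGB7 window held GAGGAA at -28 and 24. No window held TGACGTCA, and among 35116 RefSeq windows of the same length 1.85% held it, 7.71% held TGANTCA, 27.9% held GAGGAA and 45.0% held GGGCGG. The share of 7.71% is per window, while 7 members were searched, 2 of them with 2 windows each. A single AP-1 match among these windows was not tested against that share. GAGGAA was also present in windows of ITGAE and ITGB1, which were not called. GGGCGG was also present in windows of ITGB1 and of ITGA6, the member not tested. A match of letters is a description and does not show that a factor binds there.

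Read beside their partners, the alpha chains were not matched in level to the beta chains. In wild type the ratio of summed TPM of ITGAL to ITGB2 was 2.66, 3.04 and 2.71, and in knockout 3.13, 2.62 and 2.53. Over protein-coding transcripts alone this excess was smaller. The means of ITGAL and ITGB2 were then 183 and 115 TPM in wild type and 193 and 114 TPM in knockout. ITGAL made up 99.0% ± 0.338 of the summed TPM of the alpha chains ITGAL, ITGAM and ITGAX in wild type and 97.8% ± 0.348 in knockout (SD, n = 3). ITGAM made up 0.332% ± 0.0898 and 0.959% ± 0.360, with every knockout library above every wild-type library. Nearly all alpha-chain mRNA of the β2 family was thus ITGAL in both groups.

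The log2 ratio of ITGAM to ITGB2 was -6.50, -6.30 and -7.16 in wild type and -5.54, -4.76 and -5.42 in knockout, a difference of 1.41. That of ITGA5 to ITGB1 was 1.17, 1.16 and 0.88 in wild type and 1.43, 1.31 and 2.14 in knockout, a difference of 0.55. These were the 2 of 8 alpha and beta pairs whose groups did not overlap. Each had an exact two-sided permutation p of 0.1, the smallest possible with 3 against 3, and an adjusted p of 0.4 over the 8 pairs. As single genes 43.5% of all tested genes had groups that did not overlap in CPM, and no such share was computed for ratios. On CPM, with no division by length, ITGA5 to ITGB1 overlapped (a difference of 0.26), while ITGAM to ITGB2 did not (1.27). On that scale 4 other pairs were lower in every knockout library: ITGA4 to ITGB1 (-0.38), ITGA6 to ITGB1 (-0.85, against 0.20 on TPM), ITGA4 to ITGB7 and ITGAE to ITGB7. ITGA6 held 3 to 9 reads per library, so both of its values are close to the limit of detection.

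ITGA4 exceeded both of its possible partners. Its summed TPM was 8.65, 8.34 and 6.91 times that of ITGB1 in wild type and 6.85, 6.91 and 7.75 times in knockout. Over protein-coding transcripts alone this excess was smaller. The means of ITGA4 and ITGB1 were then 89.6 and 18.0 TPM in wild type and 87.5 and 18.2 TPM in knockout. Over all transcripts ITGA4 was 10.8, 8.76 and 5.89 times as high as ITGB7 in wild type. In knockout it was 3.43, 7.00 and 2.30 times as high, and knockout replicate 2 lay within the wild-type range. The difference in the log2 ratio of ITGA4 to ITGB7 was -1.11 (exact two-sided permutation p = 0.2, 3 against 3). The ratio of ITGAE to ITGB7 differed by -0.75 (exact permutation p = 0.2, 3 against 3). The groups of both pairs did not overlap on CPM, with differences of -1.17 and -0.86. Over protein-coding transcripts those of ITGAE to ITGB7 did not overlap either (-1.10). There ITGAE stayed at or below 0.0845 TPM, under the pseudocount of 0.1 TPM, so that difference mostly follows ITGB7. Of the summed TPM of the 3 beta chains, ITGB7 made up 8.65, 11.3 and 12.7% in wild type and 23.0, 13.6 and 22.5% in knockout, and ITGB2 fell short of its wild-type share of 77.9% ± 2.26, at 69.7% ± 3.74.

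**Figure D4:**
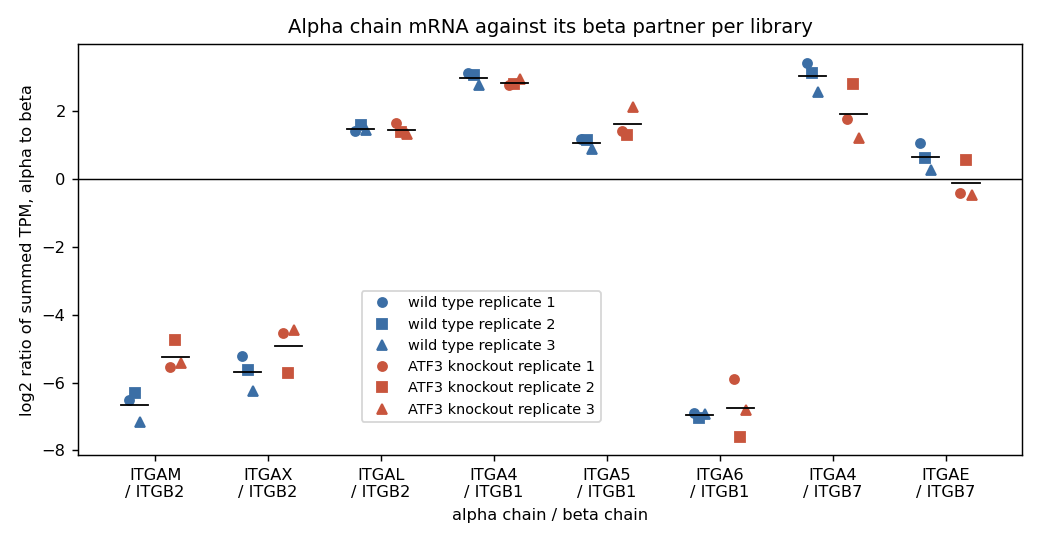
Each point is the log2 ratio of an alpha chain's summed TPM to that of its beta partner in a library (pseudocount 0.1 TPM), with wild type in blue, ATF3 knockout in red and black lines at the group means; values above 0 mean more alpha than beta mRNA. ITGAL and ITGA4 lie above 0 in every library, and ITGAM, ITGAX and ITGA6 far below it.

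The transcripts behind the gene totals differed in kind between members. Transcript reads are estimated counts not scaled to library size, and the groups are compared on these unscaled reads. ITGAE reads lay almost wholly on short non-coding transcripts of the last part of the gene, between 3714628 and 3723854. The 721-base transcript ITGAE-202 held 242, 171 and 230 wild-type reads and 131, 168 and 171 knockout reads, and the 672-base ITGAE-207 held 94.1, 105 and 64.9 wild-type reads and 158, 176 and 199.7 knockout reads. ITGAE-207 was higher in every knockout library, and for ITGAE-202 knockout replicate 3 was level with wild-type replicate 2, so the groups met. The retained-intron transcript ITGAE-208 held 83.7, 129 and 87.8 wild-type reads and 115, 128 and 105 knockout reads, with overlap. The full-length protein-coding transcript ITGAE-201 held 9.73, 0 and 2.35 wild-type reads and 2.45, 1.11 and 6.17 knockout reads, between 0 and 2.08% of the gene. ITGAE-202 and ITGAE-207 share 611 and 579 of their bases with ITGAE-201, so reads of these exons could belong to either kind.

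ITGB1 reads were divided between protein-coding transcripts that start at different places. ITGB1-201 (32900392 to 32958209) held 1216, 1000.2 and 1203 wild-type reads and 529, 1196 and 360 knockout reads. ITGB1-202 (32900319 to 32957894) held 0, 392 and 0 wild-type reads and 899, 737 and 913 knockout reads. Wild-type replicate 2 was thus the one wild-type library with reads on ITGB1-202, and it remained below all knockout libraries. The transcripts are 3735 and 3784 bases long over nearly the same span, so the division is an estimate.

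The ITGB2 transcripts ITGB2-203 and ITGB2-206, which start at different places, held 3597, 4279 and 4475 reads and 3184, 2419 and 2858 reads in wild type. In knockout they held 4544, 4832 and 6491 reads and 1742, 2441 and 2123 reads. ITGB2-203 was higher in every knockout library, although knockout replicate 1 exceeded wild-type replicate 3 by a small margin, and ITGB2-206 overlapped. For ITGAM the reads lay on the coding transcripts ITGAM-209 and ITGAM-202, whose lengths of 4745 and 4719 bases are nearly the same, and their sum followed the gene. ITGAM-209 held 0, 88.9 and 118 wild-type reads and 205, 204 and 236 knockout reads, and ITGAM-202 held 103, 0 and 0 wild-type reads and 45.1, 94.1 and 0 knockout reads.

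ITGB7 held 82.0 to 89.1% of its reads on protein-coding transcripts, mostly ITGB7-202, with 482, 776 and 723 wild-type reads and 1499, 932 and 1762 knockout reads. Chosen after its values were seen, the retained-intron transcript ITGB7-208, which shares no base with ZNF740, held 0 reads in every wild-type library and 72.0, 57.2 and 76.8 in knockout. ITGB7-208 shares 854 of its 1526 bases with ITGB7-202, so its 0 is an estimate. The retained-intron transcript ITGB7-214 (53196332 to 53207251) covers nearly the same span as ITGB7-208 (53196594 to 53207251). ITGB7-214 held 56.2, 71.9 and 80.9 wild-type reads and 66.7, 46.8 and 107 knockout reads. How reads were divided between these transcripts was not tested, so no fold is given for ITGB7-208. ITGB7-206, which also shares no base with ZNF740, overlapped between the groups, with 40.3, 51.5 and 76.2 wild-type reads and 126, 49.9 and 160 knockout reads. A retained-intron transcript of ITGAX, ITGAX-207, held 70.4, 20.1 and 49.0 wild-type reads and 103, 48.6 and 157 knockout reads, beside 136, 103 and 133, and 153, 109 and 338, of the coding ITGAX-201.

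The genes most plainly carried by a single full-length transcript were ITGA5, ITGAL and ITGA4. ITGA5-201 held 92.9 to 95.4% of the reads of ITGA5, ITGAL-201 84.6 to 85.8% of those of ITGAL, with a further 7.93 to 10.2% on the coding ITGAL-202, and ITGA4-203 82.6 to 85.1% of those of ITGA4. These shares differed little between libraries.

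The remaining integrin subunits were mostly scarce, ITGA7 aside. Of the other 16 genes of the family 8 were tested, 1 rose and 1 fell, with a median log2 fold change of 0.33. Over all tested genes 11.4% were called higher and 9.72% lower. ITGA2B, the platelet αIIb chain, went from 0.429 to 1.42 CPM, a log2 rise of 1.71 (SE 0.37, edgeR adjusted p = 0.0221), while its β3 partner ITGB3 had 0 reads in every library. ITGB4, the laminin-binding β4 chain, went from 2.61 to 1.27 CPM, a log2 change of -1.04 (SE 0.25, adjusted p = 0.0295). Under the length offset neither was called (adjusted p = 0.0583 and 0.0586), nor without wild-type replicate 3 (0.0896 and 0.114) or knockout replicate 1 (0.0654 and 0.0892). ITGA2B was also lost without knockout replicate 2 (0.0566) and ITGB4 without knockout replicate 3 (0.0643). ITGAV, the αV chain, averaged 7.53 CPM in wild type against 13.2 CPM in knockout, with an adjusted p of 0.0502, and was chosen after its values were seen.

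Among the activators, inhibitors and other cytoplasmic partners that act on integrins from inside the cell, 6 of 19 tested genes rose and 2 fell, with a median log2 fold change of 0.21. FLNA, the actin crosslinker filamin A that binds beta tails, went from 909 ± 31.6 to 1151 ± 62.8 CPM, a log2 rise of 0.34 (SE 0.06, edgeR adjusted p = 0.015). The adaptor gene DOK1, whose product competes with talin for beta tails, rose by 0.53 (SE 0.08, adjusted p = 0.0112), from 13.8 to 20.0 CPM. FERMT1, which encodes kindlin-1, went from 8.95 to 5.00 CPM, a log2 change of -0.84 (SE 0.17, adjusted p = 0.0191). Without wild-type replicate 3 FLNA, DOK1 and FERMT1 were not called (adjusted p = 0.0735, 0.0544 and 0.0775), and FERMT1 was not without knockout replicate 2 (0.0502). Chosen after their values were seen, FERMT3, the kindlin of blood cells, stood at 153 and 157 CPM (log2 fold change 0.04, adjusted p = 0.815), and TLN1, which encodes talin-1, rose by 0.31 from 645 to 799 CPM (adjusted p = 0.0387). TLN1 lost its call with the GC trend removed (adjusted p = 0.17), and with each library left out it was called only without knockout replicate 3 (0.0179; 0.0729 to 0.147 for the others).

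Of 24 tested genes of focal adhesions and signalling from integrins 7 rose and 2 fell, with a median of 0.08. PTK2B, the FAK-related kinase PYK2, went from 380 ± 38.5 to 516 ± 18.1 CPM, a log2 rise of 0.44 (SE 0.08, edgeR adjusted p = 0.0154). PARVG and ILK, partners in the complex that links beta tails to actin, rose by 0.37 (SE 0.06) and 0.37 (SE 0.08), with adjusted p-values of 0.0135 and 0.0237. Under the length offset both missed the threshold (adjusted p = 0.0554 and 0.0696), and PARVG also did over protein-coding transcripts alone (0.163). Without wild-type replicate 3 PTK2B, PARVG and ILK were not called (0.0706, 0.0667 and 0.0925), and ILK was not without knockout replicates 1 (0.0641) or 2 (0.0617). The other calls, named to complete the count, were VCL, SRC, CRK and ACTN1 higher and FYN and TLNRD1 lower, and under the length offset all 6 were lost (adjusted p = 0.128, 0.11, 0.0679, 0.0706, 0.0634 and 0.0709). With each library left out SRC, CRK, ACTN1 and TLNRD1 were called in 1 of 6 fits, VCL in 2 and FYN in 3.

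Of 30 ligands and counter-receptors 14 were tested, 2 rose and 1 fell. ICAM2, a ligand of LFA-1, went from 5.75 to 10.8 CPM, a log2 rise of 0.91 (SE 0.22, edgeR adjusted p = 0.0301), which was lost without wild-type replicates 2 (0.0594) or 3 (0.104) and without knockout replicate 1 (0.0593). ICAM5 rose by 0.41 (SE 0.10, adjusted p = 0.0268) but not over protein-coding transcripts alone (0.542), nor without wild-type replicates 2 (0.0678) or 3 (0.0778) or knockout replicate 1 (0.0523). The matrix gene TNC had 36, 11 and 33 wild-type reads and none in knockout. Set against 3 reads over the 3 knockout libraries, it was at least 26.4-fold lower (edgeR adjusted p = 0.0156, and 0.0621 without wild-type replicate 3). TNC passed the filter on low counts through its wild-type libraries alone, and that bound covers counting error alone. VCAM1, the ligand of VLA-4, had 0 reads in every library. Of 12 tested membrane partners 4 rose and 1 fell. The tetraspanin genes CD82 and CD63 rose by 1.16 (SE 0.23, adjusted p = 0.0188) and 0.73 (SE 0.12, adjusted p = 0.013), and SLC3A2, the CD98 heavy chain that associates with beta tails, went from 441 to 247 CPM, a log2 change of -0.84 (SE 0.08, adjusted p = 0.00787). Without wild-type replicate 3 CD82 and CD63 were not called (0.0615 and 0.0523), and CD82 was not without knockout replicates 1 (0.0507) or 2 (0.0526). The list medians stand beside 0.01 for all tested genes, and the list counts beside 11.4% called higher and 9.72% called lower. All of these calls were lost without wild-type replicate 1.

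The members did not vary as a block across libraries. Over the 6 libraries the Pearson correlation of log2 CPM was 0.97 between ITGAM and ITGA5 and 0.92 between ITGA5 and ITGAE, and it was -0.87 between ITGA4 and ITGAX and -0.83 between ITGA4 and ITGB2. These are descriptions, since the libraries share 2 groups and all genes share the scaling of each library. Knockout replicate 3 had the highest ITGAX, ITGB2 and ITGB7 and the lowest ITGA4 and ITGB1 of all libraries. Among 12315 protein-coding genes the pattern most like that of ITGB2 over the 6 libraries was that of PSMG3 (r = 0.992), followed by EFCAB2, CCNYL1, NDOR1 and SLC50A1. The pattern most like that of ITGB1 was that of PRPF39 (r = 0.996), followed by DERL2, CNOT4, LAMTOR3 and HSPA4. None of these 10 genes was called. They are the top of a search of many genes over 6 libraries, which yields high correlations by selection.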

How the data were processed

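The kit was Illumina Stranded mRNA Prep, used for all 6 libraries, per the labels. For each library the authors deposited a Salmon table with estimated counts, TPM and lengths for 177456 transcripts, per the file headers. The submitters' processing notes name Salmon 1.6.0, FastQC 0.11.9 and hg38. Not given in the sources used here are the transcriptome release, bias options and library type, and overlapping genes of opposite strands could therefore exchange reads. The deposited TPM sum to 1000000 per library, and 93.0% of the deposited estimated counts above 0 were not whole.

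Transcripts were joined to GENCODE 29 genes by identifier, version ignored. Of them 167027 matched, and 10429, with 3.59 to 3.82% of the reads, had no gene and stayed out of library sizes and tests; reads of a member could be among them. Per gene, the estimated counts were added up and rounded. The main test was edgeR 4.0.16 (quasi-likelihood, TMM, filterByExpr with a minimum of 10 reads, group alone, R 4.3.3), with Benjamini-Hochberg adjustment at 0.05 and 4 residual degrees of freedom. CPM are TMM-scaled, and intervals between libraries are SD with n = 3. The SE of an edgeR log2 fold change was derived from its test, as the absolute log2 fold change divided by the square root of the quasi-likelihood F statistic. Alternatives used DESeq2 1.42.0, limma 3.58.1, other factors and filters, length and GC corrections, protein-coding transcripts, a replicate block and the omission of each library.

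The text names all members, ATF3, up to 3 called genes per pathway list with the smallest p, transcripts with at least 10% of a member's reads, and the 5 genes most like ITGB2 and ITGB1. The ITGA6 transcripts are given within its total. The marker genes, the other called genes of the focal adhesion list and the transcripts ITGAE-201 and ITGB7-206, under that share, were named after their values were seen. The members and lists were chosen with earlier results of these data known. Antisense genes overlapping ITGAL, ITGA5, ITGA6, ITGAE, ITGB1 and ITGB2 were not used here, and a marker gene of the lists is not reported here.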

Additional observations from a re-analysis of the deposited data

How the results depend on the processing

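The count of genes called over the whole table was 1494 higher and 1276 lower. It moved to 722 and 661 with the effective length offset, and ranged from 0 to 1370 higher and from 0 to 1388 lower with each library left out: wild-type replicate 1 left out gave 0 and 0, wild-type replicate 3 gave 210 and 148, knockout replicate 1 gave 741 and 665, and knockout replicate 2 gave 929 and 792. With library totals alone 1844 were higher and 1013 lower, 64.5% higher against 53.9%. The number of members called higher was 3, 2 with the length offset and 3 under the other settings that used all libraries, and ranged from 0 to 3 with each library left out, with ITGB1 in place of ITGB7 without knockout replicate 3. No member was called lower under any setting run. The number of alpha and beta pairs whose groups did not overlap was 2, 5 on CPM, and 2 to 6 with each library left out (5 with wild-type replicate 3 omitted, 6 with knockout replicate 2 omitted), where fewer samples make overlap less likely. Among members not called, the log2 fold change of ITGAL changed sign with upper-quartile factors (-0.015), the length offset (-0.057) and the GC trend removed (-0.063), and that of ITGB2 with the length offset (-0.029) and the GC trend removed (-0.051). With each library left out ITGAL ranged from -0.058 to 0.080, ITGA4 from -0.26 to 0.042 and ITGB2 from -0.024 to 0.15. The cause of these moves was not tested. With the replicate number as a replicate block 1225 genes were higher and 1093 lower, and ITGAM, ITGA5 and ITGB7 kept their calls (ITGB7 adjusted p = 0.0459), while ITGB4 (0.0686), TLN1 (0.0507), CRK (0.055), ACTN1 (0.0681) and TLNRD1 (0.0536) were not called. Libraries with the same number did not all deviate together (correlations of -0.0924, 0.106 and 0.196), so the numbers were not taken as pairs. At 93 to 118 reads of ITGAM and 37 reads of ITGA6 in all, counting error limits both.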
